A study of Mus musculus with 4 samples.

Results

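The genes described here encode the proteins of the cytosolic ribosome. They were taken by symbol: Rpl or Rps followed by digits and an optional letter, plus Rplp0, Rplp1, Rplp2 and Rpsa. That gave 80 of 32285 genes, 49 of the large (60S) subunit and 31 of the small (40S) subunit. Symbols with -ps (5), Rps6k kinase genes (10) and 6 other near symbols (Rpl22l1, Rps3a1, Rps27rt, Rpl36al, Rpl7l1 and Rps19bp1) were not members. Fau and Rack1, which also encode ribosome parts, fall outside the rule by their names. The genes were selected on their share of UMIs across classes, villus position and libraries in these same data, so the values of those measures are given as a description and not as a test.

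Male C57BL/6J mice of 8 weeks received high-fat feed for 7 weeks together with l-NAME, which blocks nitric oxide synthases, and the small-intestinal epithelial layer was taken at 15 weeks. The 2 control samples had that diet alone and the 2 IPA samples had 562.5 mg IPA per kg of it, so that both groups shared the high-fat diet and l-NAME. Each sample pooled 2 mice, and live (DAPI-negative) cells were sorted for droplet single-cell RNA sequencing with unique molecular identifiers (UMIs), which count captured transcripts. No label or header used here ties the 4 libraries (barcode numbers 1 to 4) to a diet, so no comparison of diets was made, and diet, mice and preparation cannot be told apart between libraries.

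Of 44277 barcodes, 25788 had at least 500 UMIs, at least 250 genes and at most 25% mitochondrial UMIs. The libraries kept between 6174 and 7122 cells, with a median of 22601 to 27622 UMIs per cell. Cells were placed in 16 classes by summed marker genes, none of them a ribosomal protein gene. Stem-gated cells held Olfm4 at 3952 to 4755 CPM (UMIs of a gene scaled to the same total in each class), T-gated cells Cd3e at 1328 and 1382 CPM, B-gated cells Cd79a at 2688 and 2913 CPM and goblet-gated cells Muc2 at 12806 to 15908 CPM. Enterocytes were divided into 5 villus ranges by a score of villus-tip minus villus-base genes. Adenosine deaminase (Ada), a tip gene used in that score, was at 2855 to 6092 CPM in range 5, called the tip here, and at 6.2 to 36.2 CPM in range 1. The ungated class holds cells that met no gate and lay below the limit of the enterocyte marker set. That set leaves out Fabp6, an ileal bile acid binding protein, which was at 4787 to 17373.5 CPM in the ungated class. The class therefore also holds cells rich in an enterocyte transcript. Classes with at least 20 cells in a library are reported, which left out tuft-gated cells. Among kept barcodes, 75 barcode sequences occurred in 2 libraries, and leaving them out changed no value below beyond the spread between libraries.

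Ribosomal proteins assemble on ribosomal RNA in the nucleolus into the 40S subunit, which reads the mRNA, and the 60S subunit, which joins amino acids. Their mRNAs typically begin with a run of pyrimidines directly at the cap, the 5′ terminal oligopyrimidine (TOP) tract, through which growth signalling by mTOR sets their translation. In the small intestine, stem cells at the crypt base divide quickly and their progeny move up the villus, where absorptive cells are shed at the tip.

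The RefSeq table of promoters (GRCm38.p6, the patch series of the mm10 build) held 60 of the 80 members. A window from 20 bases before to 40 bases after each annotated start was searched for a C followed by at least 6 bases that are each C or T. The tract was found on the gene's own strand in 45 of the 60 members (75%) and in 29.1% of 20267 genes of the table. On the opposite strand it was found in 15% of members and 33.6% of genes. The sequences below are of 12 members among those with the largest or smallest differences between stem-gated cells and the villus tip, described further on, and of Fau, not a member, whose difference was smaller still. Rps19, Rpl10 and Rpl18, also among those members, have entries that are not printed. Each sequence is 30 bases with the first tract of the window in capitals (in Rps27l another follows it in lower case), and those in lower case throughout had no tract in the window and are centred on the annotated start. Rps24 and Rps27l each have another annotated start without a tract.
Rpl36a, chrX:134585671-134585700, plus strand: gcggctctagCCTCTCTCTTTCCgagctgc
Rps18, chr17:33955648-33955677, minus strand: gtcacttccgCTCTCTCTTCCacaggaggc
Rps24, chr14:24490666-24490695, plus strand: gcgctggggtCCTTCCTTgcgcgttgatat
Rpl14, chr9:120571499-120571528, plus strand: gcagggcgggCCCTCTCTCTTCTCgctgag
Rpl12, chr2:32961697-32961726, plus strand: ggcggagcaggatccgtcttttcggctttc
Rps4x, chrX:102189377-102189406, minus strand: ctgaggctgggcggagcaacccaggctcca
Rpl7a, chr2:26910785-26910814, plus strand: ccccacaattCCCTCTTCTTTCTTTCTCCa
Rpl28, chr7:4792953-4792982, plus strand: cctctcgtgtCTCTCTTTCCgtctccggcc
Rpl38, chr11:114668570-114668599, plus strand: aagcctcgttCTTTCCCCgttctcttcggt
Rps27, chr3:90213631-90213660, minus strand: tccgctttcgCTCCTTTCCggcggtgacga
Rps27l, chr9:66946056-66946085, plus strand: cgcctccactCCTCTCCactcctccccgcc
Rpl41, chr10:128549154-128549183, minus strand: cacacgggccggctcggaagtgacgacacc
Fau, chr19:6057934-6057963, plus strand: cgcgcccccaCTTCTTCCTCTTTCTTgact

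Ribosomal protein genes took up about 27% of the transcripts of stem-gated cells and between 1% and 2% at the villus tip. In stem-gated cells they held 26.6%, 27.1%, 27.0% and 27.0% of UMIs in libraries 1 to 4 (119 to 301 cells). At the tip they held 1.18%, 1.14%, 1.77% and 1.54% (202 to 1217 cells). The share was 22.5, 23.7, 15.3 and 17.5 times as high in stem-gated cells as at the tip of the same library. The 4 stem values lay close together, and no tip value came near them. The exact binomial (Clopper-Pearson) 95% interval, which covers counting error only, was 26.9% to 27.0% for the stem-gated cells of library 4, the fewest.

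The fall came in steps along the axis. Cycling cells that missed the stem gate held 21.5%, 21.2%, 22.3% and 22.2%, and ungated cells 15.1%, 16.8%, 18.4% and 18.5%. The lowest villus range then held 7.09%, 7.56%, 8.20% and 8.29%, less than the ungated class in each library. Range 4 held 1.38%, 1.56%, 2.45% and 2.35%, already close to the tip.

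In the middle of the villus the libraries differed. Range 2 held 4.84%, 5.14%, 10.8% and 8.69% and range 3 held 2.26%, 1.92%, 7.66% and 6.35%. In libraries 3 and 4 the share was thus higher in range 2 than in range 1, while libraries 1 and 2 fell at that step. Range 1 of library 3 held only 67 cells, with Fabp6 at 12332 CPM against 1202 CPM in the 2790 range 1 cells of library 2. The score uses Reg3b, which was at 81.6 and 114 CPM at the tip of libraries 3 and 4 and at 892 and 2480 CPM in libraries 1 and 2. The part of these values in the difference was not tested.

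**Figure D1:**
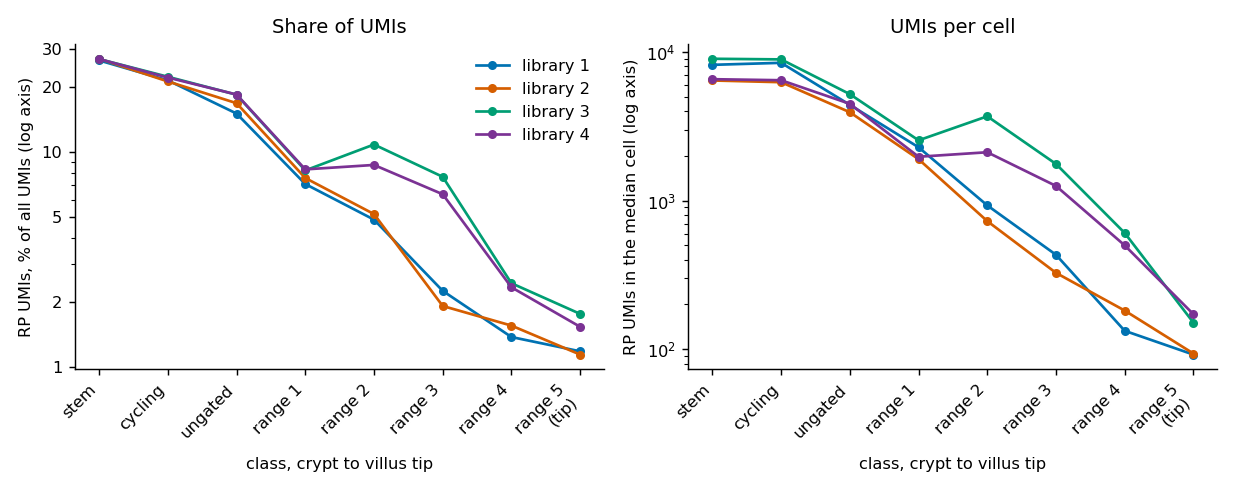
Left, UMIs in ribosomal protein (RP) genes as a percentage of all UMIs of a class, and right, RP UMIs in the median cell, both on log axes, for 8 classes drawn from crypt to villus tip; each point is 1 class of 1 library and lines join the classes of a library. The ungated class is a mixed remainder, and its place between cycling cells and range 1 was not measured. The share starts at 26.6% to 27.1% in all 4 libraries and ends at 1.14% to 1.77%, with libraries 3 and 4 above libraries 1 and 2 in ranges 2 and 3.

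Per cell the fall was steeper, and tip cells also held fewer UMIs in total. The median stem-gated cell held 8208, 6442, 9017 and 6570 RP UMIs and the median tip cell 92, 93.5, 151 and 172. The ratio was 89.2, 68.9, 59.7 and 38.2, beside a ratio of total UMIs per cell of 3.25, 2.40, 3.18 and 1.70. The mitochondrial share moved with it, from between 7.59% and 8.50% in stem-gated cells to between 13.3% and 14.8% at the tip. With cells of over 15% mitochondrial UMIs left out, the median ratio of the 4 libraries was 42.6 in place of 64.3. RNA free in the droplets can also reach every class, and its part in the tip values was not tested. Mki67, a proliferation gene, was at the tip at 0.53% to 1.31% of its stem level, and Olfm4 at 0.0914% to 0.414%. The members were at 4.22% to 6.55% of theirs. Members held 8.53% of all kept UMIs and had UMIs in every class, so their percentage is not on one scale with those of Mki67 and Olfm4. Barcodes outside the limits held 0.92% to 1.59% of UMIs in members, a range that overlaps the tip values.

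Within the crypt, the share was highest in stem-gated cells that met no cycling gate, at 29.1%, 29.1% and 29.0% in libraries 1 to 3 (34 to 71 cells, and under 20 in library 4). Stem-gated cells with S-phase genes alone held 27.5% to 28.2%, and those with G2/M genes alone 25.4% to 26.1%. The same order held among cycling cells outside the stem gate, at 23.4% to 24.2% with S-phase genes alone and 19.8% to 21.0% with G2/M genes alone. In stem-gated cells the order of RP UMIs per cell was the reverse. The median G2/M stem-gated cell held 8093 to 10389 RP UMIs and the median non-cycling one 5122 to 6998, as total UMIs per cell were higher in the former. Among cycling cells outside the stem gate the RP UMIs per cell had no common order: the median was 7810, 5853, 8106 and 6157 with S-phase genes alone and 8647, 5625, 8734 and 5813 with G2/M genes alone.

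Every measured member was lower at the tip. A gene was called where its CPM, with 1 CPM added, differed by at least 1.5-fold in the same direction in all 4 libraries, among genes with a mean of at least 10 CPM. By this rule 77 of 77 measured members were higher in stem-gated cells than at the tip and none was lower, beside 42.9% of 7636 genes higher and 24% lower. The median log2 ratio of stem over tip was 4.37 for the members (20.7-fold) and 0.49 for all genes. Their ratios ran from 1.11 to 5.97, and 75 of the 77 were at or above 3, a level that 1048 of the 7636 genes reached. With median-ratio size factors in place of total UMIs the members' median was 4.21 and 77 were still higher. The 3 members that were not measured, Rpl3l, Rpl10l and Rpl39l, had few or no UMIs. With villus ranges cut within each library Rps27l missed the call.

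**Figure D2:**
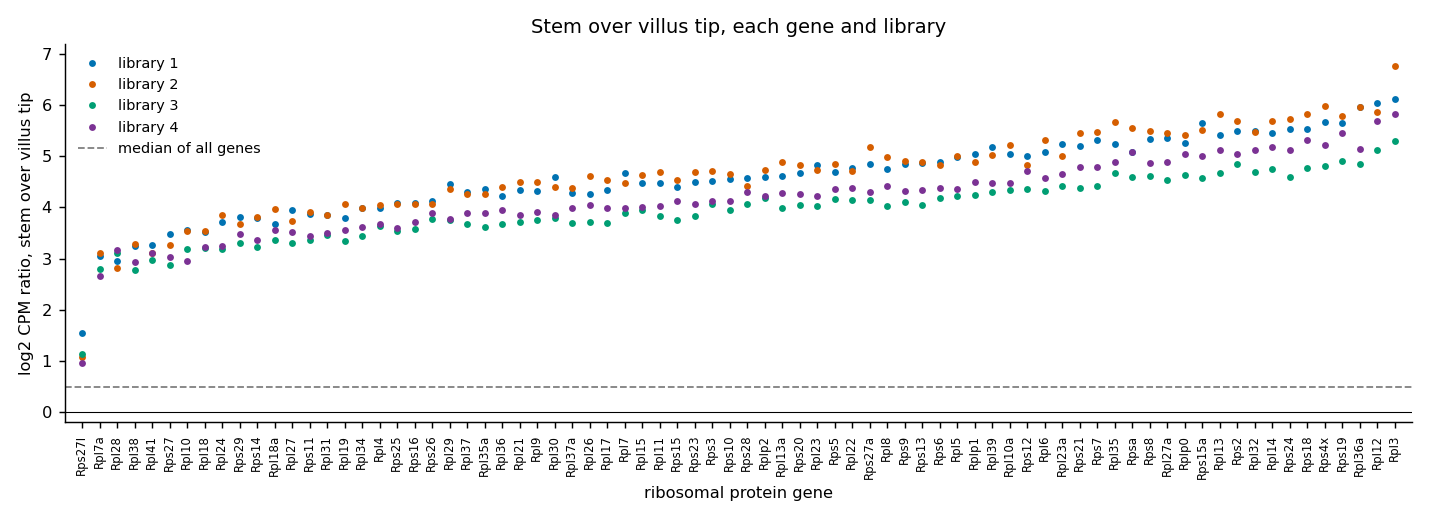
Log2 CPM ratio of stem-gated cells over the villus tip for 76 of the 77 measured members, ordered by their median, with a point for each of the 4 libraries; the dashed line is the median of all genes, 0.49. All points lie above the line, and Rps27l stands apart at the low end with a median of 1.11.

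At the top of this order was Rpl3, a protein of the large subunit that reaches towards the peptidyl transferase centre. It was at 3065, 3402, 3403 and 3242 CPM in stem-gated cells and at 43.2, 30.4, 85.8 and 56.0 CPM at the tip, a 62.9-fold difference. Rpl12, which sits at the base of the stalk, was at 3436 to 3800 CPM and 51.4 to 101 CPM (54.9-fold). Next came Rpl36a (47.2-fold), Rps19, the gene most often mutated in Diamond-Blackfan anaemia (47.0-fold), Rps4x (43.6-fold), Rps18 (43.1-fold), Rps24 (40.2-fold) and Rpl14 (5.32 on the log2 scale). Stem and tip values of these 8 genes did not come near each other in any library.

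At the bottom was Rps27l, a p53-inducible paralog of Rps27. It was at 759, 656, 690 and 700 CPM in stem-gated cells and at 261, 311, 313 and 360 CPM at the tip, a 2.15-fold difference. The next smallest differences belonged to Rpl7a (7.61-fold), Rpl28 (8.15-fold), Rpl38, whose loss in mice alters the axial skeleton (8.51-fold), Rpl41 (8.62-fold), Rps27 (8.86-fold), Rpl10, which joins the 60S subunit late in its assembly (10.3-fold), and Rpl18 (10.4-fold). Rpl28 was at 4664 to 4816 CPM in stem-gated cells and at 603, 679, 545 and 537 CPM at the tip. Tracts occurred at both ends of the order. The 43 measured members with a tract in the window had a median log2 ratio of 4.34 and the 14 without had 4.43, within ranges that overlapped (1.11 to 5.56 and 3.11 to 5.78). The search did not require the tract to lie at the cap and passed over shorter ones. The split therefore does not separate TOP mRNAs from others and cannot show what the tract does.

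Members with a shared place in the ribosome spread over much of this range. The stalk proteins, which recruit the translation GTPases, had log2 ratios of 5.78 (Rpl12), 5.16 (Rplp0), 4.69 (Rplp1) and 4.41 (Rplp2). Rplp0 was at 4989, 5817, 5486 and 5573 CPM in stem-gated cells and at 129, 135, 220 and 167 CPM at the tip. Rpl5 and Rpl11, which with 5S rRNA bind Mdm2 when ribosome assembly is disturbed, had ratios of 4.67 and 4.25.

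Proteins around the exit tunnel, through which the new chain leaves, ran from 3.67 (Rpl31) to 5.06 (Rpl35), with a median of 4.55 over 7 genes. Rpl4 and Rpl17, which line the tunnel, were at 3.83 and 4.17, and Rpl39 at 4.75. The 8 genes of the decoding site and mRNA path ran from 3.98 (Rps26) to 5.27 (Rps2), with Rps3 at 4.33, Rps23 at 4.28, Rps12 at 4.77 and Rpsa at 5.09. The ranges of these roles overlapped, though Rpl12 of the stalk, at 5.78, lay above every gene of the other places.

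Members known from signalling or disease showed the same spread. Rps6, the substrate of the S6 kinases, was at 2318 to 2497 CPM in stem-gated cells and at 76.8 to 133 CPM at the tip, a log2 ratio of 4.61. Rpl13a, which takes part in silencing inflammatory mRNAs, was at 4.44. Rps10, mutated in some cases of Diamond-Blackfan anaemia, was at 4.34, Rps25 at 3.84 and Rpl24 at 3.49. All 10 genes of this list were higher in stem-gated cells.

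The ribosome parts outside the naming rule did not all follow. Rack1, a scaffold protein on the 40S head, was at 2642 to 2949 CPM in stem-gated cells and 61.3 to 122 CPM at the tip (34.5-fold), and Rps3a1 differed 22.3-fold. Rps27a, a member that encodes ubiquitin fused to a 40S protein, differed by 4.57 on the log2 scale. Fau, which encodes a 40S protein fused to a ubiquitin-like protein, was at 3427, 3489, 3448 and 3430 CPM in stem-gated cells and still at 1690, 1503, 1851 and 1701 CPM at the tip. Its 2.02-fold median difference was smaller than that of every measured member, though Rps27l differed less in library 2 (1.08 against 1.21 on the log2 scale) and in library 4 (0.96 against 1.01). The start of Fau, printed above, carries a tract of 16 pyrimidines.

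The members fell together, and the make-up of the RP transcripts changed less than their amount. As a share of RP UMIs, 17 members were higher in stem-gated cells by 1.5-fold in all 4 libraries and 11 were lower. On this scale 4.75% of all genes were higher and 86.2% lower, since most genes fell less than the members did. The 17 included Rpl3, Rpl12, Rpl36a, Rps19, Rps4x and Rps18. The 11 were Rps27l, Rpl7a, Rpl28, Rpl38, Rpl41, Rps27, Rpl10, Rpl18, Rpl24, Rps14 and Rps29. Rpl28 rose from 1.76% of RP UMIs in stem-gated cells to 4.29% at the tip, and Rpl3 fell from 1.23% to 0.364%. The small subunit held a median of 43.8% of RP UMIs in stem-gated cells (43.7% to 43.9%) and 39.3% at the tip (38.9% to 40.3%), without overlap. At a fold of 2 the counts were 2 and 4.

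Across 15 classes, 51 of the 77 members kept their share of RP UMIs within 2-fold. The same range is not given for other genes, so whether this count is unusual cannot be told. The median member varied 1.82-fold between its highest and lowest class, and Rpl23 and Rpl22 varied least, at 1.18-fold. The widest range belonged to Rps27l, from 2.29% of RP UMIs in villus range 4 to 0.0445% in B-gated cells, or 51.4-fold. Rps24 made up 4.81% in plasma-gated cells, 3.48% in B-gated cells, 2.17% in stem-gated cells and 1.07% at the tip. Its 3′ exons are spliced differently between tissues, and these counts do not separate the forms. Rps15a was highest in T-gated cells at 2.81% against 1.55% in stem-gated cells, and Rps27 was highest in B-gated cells at 2.12% against 0.723%.

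Among the other classes, B-gated, T-gated and myeloid-gated cells had the higher shares of RP UMIs. Goblet-gated, enteroendocrine-gated, plasma-gated and Paneth-gated cells had lower shares. B-gated cells held 31.5% and 28.0% in libraries 1 and 3 (25 and 114 cells), the highest among the classes reported. T-gated cells held 21.3% and 20.5%, and myeloid-gated cells 19.7% and 21.5%. Goblet-gated cells held 6.42%, 9.08%, 10.2% and 8.10% and enteroendocrine-gated cells 10.5%, 15.4%, 9.81% and 11.7%. Plasma-gated cells held 5.12% and 4.97%, and Paneth-gated cells 5.33% and 6.36% in libraries 2 and 3. Per cell the order was another. The median cell held 741 to 770 RP UMIs in T-gated, 768 to 1066 in B-gated and 1250.5 to 1814 in myeloid-gated cells. It held 552.5 to 916 in goblet-gated, 962 to 1338 in enteroendocrine-gated, 1116.5 to 1483 in plasma-gated and 2047 to 2108 in Paneth-gated cells. Median total UMIs per cell were 3655 to 3827 in T-gated and 2811 to 3013 in B-gated cells.

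**Figure D3:**
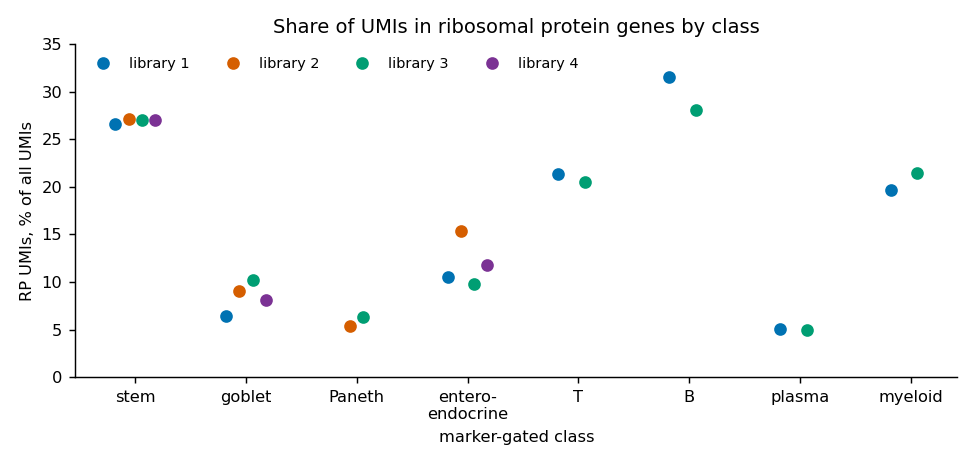
UMIs in ribosomal protein genes as a percentage of all UMIs of each class, with a point for each library that had at least 20 cells of the class. B-gated cells are highest at 28.0% and 31.5%, stem, T and myeloid cells lie between 19.7% and 27.1%, and goblet, Paneth and plasma cells lie at or below 10.2%.

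Plasma cells and Paneth cells are specialised for secretion, of antibodies and of antimicrobial peptides. Immunoglobulin, alpha-defensin and Reg transcripts took 73.6% and 71.2% of plasma-gated UMIs and 51.0% and 49.8% of Paneth-gated UMIs. Of the remaining UMIs, RP genes held 19.4% and 17.3% in plasma-gated cells and 10.9% and 12.7% in Paneth-gated cells. In goblet-gated cells these families took at most 0.897%, and the share was 6.46% to 10.3% without them. Other secreted products stayed in the total, among them Muc2 in goblet-gated cells. Lyz1 (lysozyme) also stayed, at 78262.1 and 78793.5 CPM in Paneth-gated cells. Goblet-gated cells were mixed, with single cells from 1.04% to 1.38% at the 5th percentile to 19.3% to 21.0% at the 95th.

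Gene by gene, each class was compared with all enterocytes of the same libraries by the rule of 1.5-fold in each library. Of 77 members, 76 were higher in stem-gated, cycling and ungated cells and none was lower, beside 39.3%, 38.8% and 24.8% of all genes higher and 21.8%, 18.2% and 11.3% lower. In myeloid-gated cells 76 were higher, in B-gated cells 76 and in T-gated cells 75, beside 38.9%, 36.3% and 49.2% of genes, and in each of these 1 was lower, Rps27l, beside 27%, 28.7% and 25.1%. In enteroendocrine-gated cells 70 were higher and none lower (39.2% and 14.7% of genes), and in goblet-gated cells 26 and none (15.6% and 24.3%). In Paneth-gated cells none was higher and Rpl7a and Rps27l were lower (4.71% and 78.6% of genes). In plasma-gated cells Rps24 was higher and Rps27l and Rps2 lower (6.54% and 76.5%). With immunoglobulin, alpha-defensin and Reg UMIs left out of the total, 57 were higher in Paneth-gated and 77 in plasma-gated cells. Leaving them out raises the CPM of every other gene in these classes. The share of all genes higher under that total is not given here, so these counts cannot be read as particular to the members. At a fold of 2 the goblet count was 0 and the enteroendocrine count 17, also without the share of all genes at that fold.

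Rps27l was the member that missed the call in stem-gated, cycling, ungated, B-gated and myeloid-gated cells, and with Rpl7a in T-gated cells. It was lower than in enterocytes in T-gated cells, at 207 and 159 CPM (271 and 796 UMIs), and in B-gated cells, at 79.0 and 179 CPM (7 and 71 UMIs). In myeloid-gated cells it was at 289 and 261 CPM. Along the villus it fell from 608 to 671 CPM in range 1 to 385 to 468 CPM in range 4, and cycling cells had the highest levels at 783 to 842 CPM. Barcodes of T-gated cells also held enterocyte transcripts: Fabp1, an enterocyte lipid-binding protein, was at 1194 and 1829 CPM in T-gated cells against 11068 to 46411 CPM in the villus ranges. The source of these transcripts and their part in the Rps27l values were not tested.

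Paralogs of members were unequal. Rps27 and Rps27l are described above. Rpl22 differed by 4.55 (log2, stem over tip) and Rpl22l1 by 3.16, from 1233 to 1289 CPM in stem-gated cells to 120 to 167 CPM at the tip. Rpl7 differed by 4.23, and Rpl7l1 fell from 86.0 to 104 CPM to between 23.2 and 30.8 CPM. Rpl3l, the paralog of striated muscle, had 7 UMIs in 25788 cells, and Rpl39l, known from testis, had 33 UMIs, 7 of them in myeloid-gated cells. Rpl10l, a testis paralog, had 0, which allows at most 0.00462 CPM over all kept UMIs at a limit of 3 counts. Reads from RP genes also match many processed pseudogenes. Levels between members were therefore not compared, and a shift of reads between near-identical copies would not be seen here.

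Genes that make ribosomes fell alongside the ribosomal proteins, while other parts of the translation and energy machinery fell less. Of 38 measured genes of ribosome assembly and RNA polymerase I, 38 were higher in stem-gated cells than at the tip, with a median log2 ratio of 4.33. Of all 7636 genes, 42.9% were higher and 24% lower. Ncl (nucleolin) was at 742 to 857 CPM against 21.9 to 34.2 CPM, and Nop56, a box C/D snoRNP protein, at 159 to 191 CPM against 1.37 to 3.01 CPM. Of 16 elongation factors and other TOP mRNAs, 16 were higher (median 3.32). Among these Eef1a1, which delivers tRNA to the ribosome, differed 13.1-fold, and Tpt1, another TOP mRNA, 3.59-fold.

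Chaperone and import genes had a median of 3.26 (17 of 18 higher), cytosolic tRNA synthetases 2.22 (17 of 19), mitochondrial ribosomal proteins 2.12 (73 of 78) and initiation factors 1.81 (21 of 29). These counts stand beside 42.9% of all genes higher and 24% lower. Eif6, which keeps free 60S subunits from joining 40S subunits, was the initiation factor that was lower in stem-gated cells, at 211 to 241 CPM against 572 to 865 CPM at the tip. Nuclear-encoded respiratory chain genes had a median of 0.39, near the 0.49 of all genes. Of these 51 genes, 9 were higher and 1 was lower, smaller shares than those of all genes. Genes of ribosome quality control had a median of 0.64. Of these 15 genes, 6 were higher, near the share of all genes, and 2 were lower.

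Of 19 measured regulators of growth, 7 were higher in stem-gated cells and 6 lower, shares near the 42.9% and 24% of all genes. Myc, an activator of ribosome genes, was at 50.3 to 61.4 CPM in stem-gated cells and at no more than 0.905 CPM at the tip. Mxd1, which competes with Myc for Max, was at 10.6 to 21.4 CPM against 412 to 839 CPM. Of 8 measured p53 response genes 4 were higher and 3 lower, likewise beside 42.9% and 24% of all genes. Trp53 itself was at 155 to 167 CPM against 7.24 to 11.2 CPM, and Cdkn1a, a cell cycle inhibitor, at 16.1 to 39.6 CPM against 309 to 436 CPM.

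**Figure D4:**
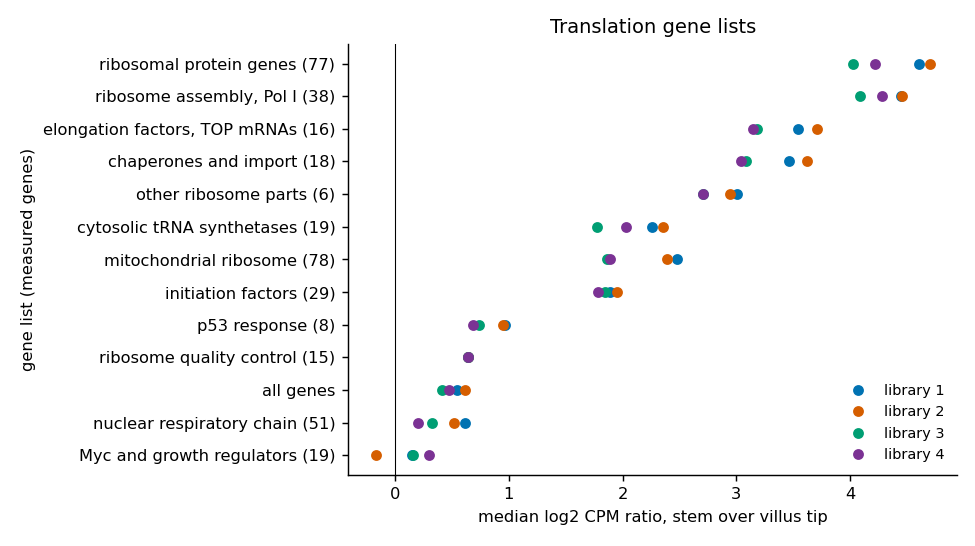
Median log2 CPM ratio of stem-gated cells over the villus tip for the members, all genes and 11 gene lists (number of measured genes in brackets), with a point for each of the 4 libraries; points can lie on top of each other. Members and assembly genes lie above 4 in each library, and respiratory chain and ribosome quality control genes lie near the median of all genes. Growth regulators lie below it in each library, at 0.15, -0.17, 0.15 and 0.30 against 0.54, 0.61, 0.41 and 0.47.

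Between libraries, the members differed little in stem-gated cells. Against the median of the 4 libraries, their median log2 ratio in stem-gated cells was -0.03, 0.03, -0.00 and 0.01. The only members past 1.2-fold were Rpl38, Rps28 and Rps29, all lower in library 2, where 1.38% of genes were higher and 4.07% lower by that much. In libraries 1, 3 and 4, where no member passed, 2.86%, 4.12% and 3.76% of genes were higher and 2.61%, 1.73% and 6.73% lower. In cycling cells 9 members were lower in library 2 by that much, beside 3.57% of genes, with Rps28 furthest at -0.36 on the log2 scale, and none was higher (1.1% of genes). No member passed there in libraries 1, 3 and 4, where 3.05%, 3.44% and 1.4% of genes were higher and 1.71%, 1.26% and 4.82% lower. Part of the variation in stem-gated cells went with annotated transcript length. Rps28, one of the shortest at 382 bases in the GENCODE vM21 principal transcript, was at 2924, 2080, 2842 and 2190 CPM, and Rps29 at 3391, 2457, 3330 and 2685 CPM. Over the 20 shortest members the median was 0.08, -0.09, 0.04 and -0.04, and over the 20 longest it was -0.06, 0.03, -0.00 and 0.01. Spearman's rho between length and the log2 ratio was -0.59, 0.52, -0.29 and 0.32 over 77 members, which share the libraries and so are not independent, and 0.10, -0.13, 0.22 and -0.19 over 7687 genes. Some members with longer annotated transcripts differed too, such as Rpl37 (835 bases) and Rpl35 (946 bases), at -0.23 and -0.19 in library 2. The annotated form can be longer than the one present in these cells, and the length present was not measured. The rho values and the sets of shortest and longest members carry the same limit. At the tip, rho over the members was -0.27, -0.05, -0.06 and 0.29.

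**Figure D5:**
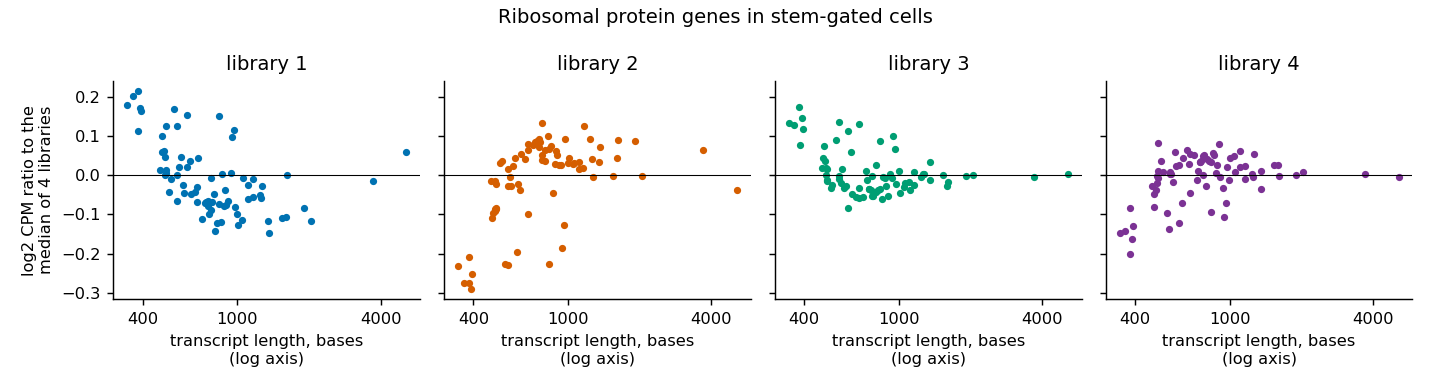
Log2 ratio of each member's CPM in stem-gated cells to the median of the 4 libraries against the annotated length of its principal transcript in bases (log axis), with 1 panel per library and 1 point per member. The shortest members lie above 0 in libraries 1 and 3 and below 0 in libraries 2 and 4, and the points run from -0.29 to 0.22.

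At the tip the libraries were further apart, with medians of -0.26, -0.30, 0.41 and 0.19. By 1.2-fold, 35 and 50 members were lower in libraries 1 and 2 (13.7% and 21.9% of genes), and 64 and 11 were higher in libraries 3 and 4 (14.4% and 12.6%). No member passed in the other direction, beside 11.4% and 4.45% of genes higher in libraries 1 and 2 and 4.47% and 14.7% lower in libraries 3 and 4. Ada differed beside them, at 6092, 6068, 2855 and 3040 CPM, and so did the number of tip cells, at 981, 202, 1217 and 1085. The libraries with less Ada at the tip thus had more RP transcripts there. The part of cell position in this difference was not tested.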

How the data were processed

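The deposited table holds raw UMI counts as whole numbers, 1 value for each gene in each barcode, as its header and values show. The submitters' processing notes name Cell Ranger 6.1.1 and the build mm10. How barcodes were filtered and which annotation was used is not given in the sources used. Members and gene lists were chosen with earlier results of these data known, and the gate limits were set after seeing the data.

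Barcodes were gated by summed marker UMIs per 10000 with at least 3 markers present. The 528 barcodes that met several gates and 7 fibroblast-gated ones were left out, and no doublet caller was run. Villus ranges were cut at scores pooled with equal weight per library, and 17.2% of 18495 enterocytes lay within 0.1 of a cut. Counts were summed per class and library, and ratios used CPM with a prior of 1 CPM. Library depth ran from 173564399 to 209357877 UMIs. Libraries are not replicates of a labelled group, so no test was run. The 1.5-fold rule was tested on simulated counts for stem over villus tip (7398 genes): it called 50 of 50 genes planted at 4-fold, 50 of 50 at 2-fold, 39 of 46 at 0.5-fold and 44 of 44 at 0.25-fold, and 0 unchanged genes. The simulated counts had counting (Poisson) error around a pooled profile and no other difference between libraries. They therefore do not show how often the rule calls unchanged genes in the real libraries.

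The genes named were the 8 largest and 8 smallest stem-to-tip ratios, the 8 widest ranges of share, paralogs, members of fixed role lists, and the 3 most abundant and 3 most different genes of each other list, of which some are printed. Some items are not reported here. Rpl23 and the members of short counts were named after their values were seen. Python 3.11.15, numpy 2.4.6, scipy 1.17.1 and pandas 2.3.3 were used.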

Additional observations from a re-analysis of the deposited data

Results flagged for a closer look

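Of 5 genes named as pseudogenes, outside the members, 3 held signal, while Rpl9-ps1 had 0 UMIs and Rpl36-ps4 had 1. Rpl10-ps3 had 12043 UMIs in kept barcodes, Rpl9-ps6 had 10685 and Rpl36a-ps1 had 4696. These 3 were higher in stem-gated cells (36.5 to 55.5 CPM for Rpl9-ps6) than at the tip (3.62 to 6.43 CPM). The control samples cannot be tied to a library, so no control level is given, and each of the 3 totals is above the limit of 3 counts.

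Barcodes outside the limits, which no comparison used, held 0.920%, 1.59%, 1.53% and 1.17% of their UMIs in members in libraries 1 to 4. The values are above the limit that a count of 0 allows, and they lie well under the 7.02%, 9.77%, 10.2% and 7.01% of the kept barcodes.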

How the results depend on the processing

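The counts of members higher and lower in stem-gated cells than at the villus tip (77 and 0), their median log2 ratio and the stem-to-tip share ratio kept their direction and stayed within the limits for an unchanged value under every alternative run for them, and the count of higher members was 76, without Rps27l, at a fold of 2 and with villus ranges cut within each library. Among 957 values of main results under alternatives, 903 were unchanged by these limits, 22 moved beyond the spread between libraries, 13 counts rose and 19 fell by over 1.5 times. Of 816 values for single named members 809 were unchanged. Without the 5% deepest cells Rpl3 had a log2 ratio of 6.65. The cause was not tested for any of the changes below.

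Without mitochondrial UMIs in the total the share of RP UMIs (median over libraries) was 29.3% in stem-gated cells, 23.7% in cycling, 19.3% in ungated, 8.79% in range 1, 22.1% in T-gated and 5.21% in plasma-gated cells, 10 members were higher in goblet-gated and 4 lower in plasma-gated cells, and the median log2 ratio was 1.71 for initiation factors and 0.54 for ribosome quality control. With at most 15% mitochondrial UMIs the ratio of RP UMIs per cell was 42.6 and 4 members were lower in plasma-gated cells. Without alpha-defensin, immunoglobulin and Reg UMIs the share was 11.8% in Paneth-gated and 18.3% in plasma-gated cells, with 57 and 77 members higher and 0 lower in both. The share of all genes higher under that total is not given. Without the 5% deepest cells 3 members were higher in goblet-gated, 1 higher in Paneth-gated and 1 lower in plasma-gated cells. With marker limits doubled the share was 27.7% in stem-gated, 5.00% in Paneth-gated and 18.5% in myeloid-gated cells, with 1 member higher in goblet-gated and 4 lower in Paneth-gated cells. As a mean over cells it was 27.2% in stem-gated, 20.0% in T-gated and 19.0% in myeloid-gated cells. Without cells rich in Fabp6, an alternative chosen after seeing the data, it was 19.3% in ungated cells.

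At a fold of 2, the counts against enterocytes were 0 higher in goblet-gated, 17 higher in enteroendocrine-gated, 0 lower in Paneth-gated, 1 lower in plasma-gated and 0 lower in myeloid-gated cells. For the share of RP UMIs they were 2 higher and 4 lower in stem-gated cells, and for the lists 1 quality control gene lower and 4 respiratory chain genes higher and 0 lower. With median-ratio size factors 74 members were higher and 0 lower in Paneth-gated cells, 68 higher and 0 lower in plasma-gated cells, and 42 higher and 1 lower in enteroendocrine-gated cells, and the median log2 ratio was 1.68 for initiation factors and 0.48 for quality control. For stem over tip the median of all genes was then 0.36 in place of 0.49. The shares of all genes called against enterocytes are not given for these alternatives.

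Leaving out each library in turn gave 2 to 9 members lower and 1 to 10 higher in plasma-gated cells, and 0 to 8 higher and 2 to 9 lower in Paneth-gated cells, where 1 library was then left. The library 2 median in stem-gated cells ran from 0 to 0.0242 in place of 0.0287. The ratio of range 1 to range 2, 1.21 as a median over libraries, was 0.954 without library 1 or 2 and 1.46 without library 3 or 4. No paired analysis was possible because the barcode numbers carry no replicate number of the labels and no test was run.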
